A study of Mus musculus with 2 samples.

Results

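Transcripts of 8 genes for eosinophil ribonucleases and granule proteins, of 23786 genes with a named probe, were read on 2 arrays of mouse bone marrow-derived dendritic cells (BMDCs), antigen-presenting cells grown from marrow. They are the ribonuclease genes Rnase2a, Ear1, Ear2, Ear6 and Ear10, the major basic protein genes Prg2 and Prg3, and the peroxidase gene Epx. The genes were chosen by the difference in signal between these 2 arrays, seen in earlier results of the same data, and their probes are those whose transcript accession belongs to a listed gene. That gave 10 probes of 56603, with 2 each for Ear6 and Prg3 and 1 for every other gene. All 10 were well above background on both arrays by the call of the scanner program.

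One array held RNA labelled EGR1-deficient and the other RNA labelled WT, with 1 array per label and no replicates, so no difference below has a test or a p-value. Both samples are labelled as male C57BL/6J, and both cultures were grown from femoral marrow in 10 ng/ml GM-CSF and collected on day 6. How Egr1 was inactivated, in which cells, the age of the mice and whether animals were pooled are not given in the sources used here. EGR1 is a zinc-finger transcription factor made soon after many stimuli. The scanner program called 59.8% of 59305 spots above background for the EGR1-deficient label and 55.2% for WT. Its check of the mean negative-control signal was out of range for the EGR1-deficient label (41.34) and in range for WT (38.75). The bearing of that flag on dim probes was not tested. The targeted gene went against the labels: Egr1 read 1212 ± 121 intensity units in cells labelled EGR1-deficient, against 380 ± 38.2 in cells labelled WT, a log2 difference of 1.61 in 1 probe. Where that probe lies relative to the inactivated part is not given, so it neither bears out nor refutes the labels, and every direction below rests on them. The ± values are the scanner program's own error for 1 spot, not a spread between cultures.

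Eosinophil-associated ribonucleases belong to the RNase A superfamily, a set of small secreted enzymes that cut RNA. Rodents carry many recent copies, the Ear genes, which correspond to the human eosinophil-derived neurotoxin and eosinophil cationic protein. Eosinophils store them in granules with major basic protein, a cationic protein that damages membranes, and with eosinophil peroxidase, which makes oxidants from hydrogen peroxide. Several Ear genes are also read in macrophages, alveolar macrophages among them, which depend on GM-CSF, the cytokine used in these cultures. The transcripts are therefore not specific to eosinophils.

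The ribonuclease genes lie on chromosome 14 and are close copies, which matters for reading their probes. The upstream sequence of each, which the probes do not read, is shown. RefSeq promoters of build GRCm38.p6 were found for 7 of the 8 genes, all but Prg2. The lines below give the 150 bases before the annotated start of Ear1 (chr14:43819640-43819789, minus strand), Ear2 (chr14:44102504-44102653, plus strand), Ear10 (chr14:43923597-43923746, minus strand), Ear6 (chr14:51853618-51853767, plus strand) and Rnase2a (chr14:51256113-51256262, minus strand), each 5′ to 3′. Capitals mark the longest run shared by all 5.
Ear1: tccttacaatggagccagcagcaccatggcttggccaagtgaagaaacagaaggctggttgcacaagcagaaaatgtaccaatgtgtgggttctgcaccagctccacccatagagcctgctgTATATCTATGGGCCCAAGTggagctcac
Ear2: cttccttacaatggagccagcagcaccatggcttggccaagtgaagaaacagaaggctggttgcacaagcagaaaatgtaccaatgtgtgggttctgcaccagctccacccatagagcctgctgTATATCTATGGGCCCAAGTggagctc
Ear10: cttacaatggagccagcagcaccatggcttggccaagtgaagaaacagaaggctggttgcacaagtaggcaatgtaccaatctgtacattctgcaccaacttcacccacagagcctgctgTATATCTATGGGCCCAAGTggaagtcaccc
Ear6: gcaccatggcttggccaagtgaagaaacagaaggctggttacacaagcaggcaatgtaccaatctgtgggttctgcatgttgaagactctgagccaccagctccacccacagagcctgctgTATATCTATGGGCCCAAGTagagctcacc
Rnase2a: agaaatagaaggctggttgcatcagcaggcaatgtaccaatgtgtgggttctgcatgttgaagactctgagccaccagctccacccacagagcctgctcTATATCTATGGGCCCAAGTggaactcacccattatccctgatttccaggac

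The shared run is 19 bases long and ends 8 to 12 bases before the start in the 4 Ear genes and 33 bases before it in Rnase2a. Among 27025 promoters, searched over 250 upstream bases on both strands, only those 5 held it. Over these 250 bases Ear1 and Ear2 were 97.6% identical and Ear10 was 91.7% and 91.0% identical to them. Ear6 was 77.7% to 79.9% identical to those 3 genes, and Rnase2a 60.9% to 73.9% identical to the 4 others. The 11 pairs that include Prg3 or Epx ranged from 48.5% to 51.0%. Identity upstream of the start does not measure that of the transcripts, which were not compared. The probe sequences were not used here, so how much of a copy's RNA binds the probe of another could not be measured. The 5 ribonuclease readings may share signal.

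**Figure D1:**
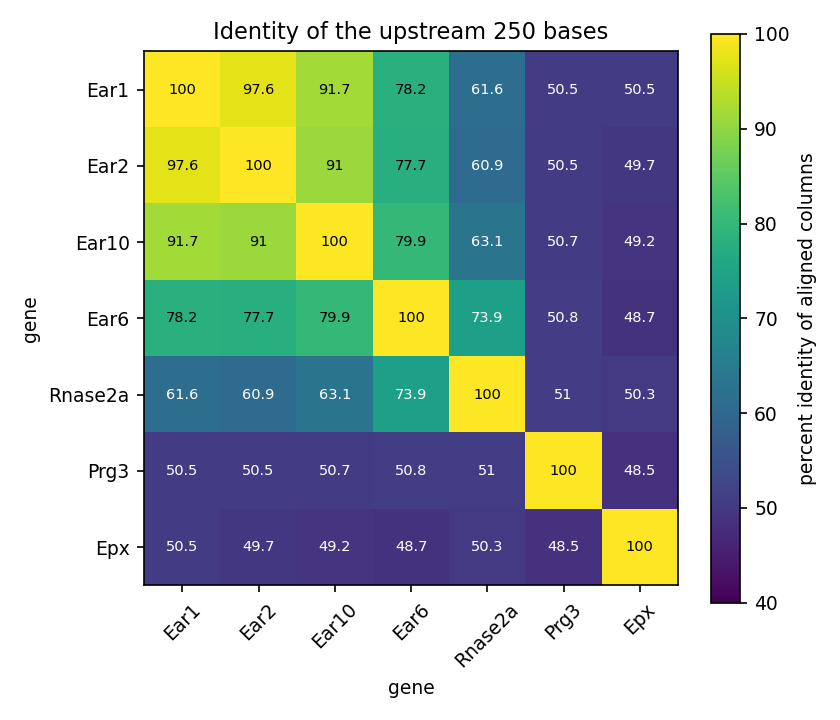
Percent identity of the 250 bases upstream of the annotated start for each pair of 7 genes (rows and columns are genes, colour and numbers give the percent of aligned columns that are identical). Ear1, Ear2 and Ear10 form a block from 91.0 to 97.6, Ear6 and Rnase2a lie further off, and Prg3 and Epx stay at or below 51.0 against every other gene.

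In all, 4 motifs were searched on both strands of the same 250 bases, chosen after the sequences had been read. The EGR motif GCGNGGGCG was in none of the 7 promoters, against 4.65% of all promoters. TTGCNNAA, a form of the C/EBP site, was in Rnase2a, Ear1, Ear2 and Ear10, against 9.55% of all promoters. In Ear1, Ear2 and Ear10 it was the same 8 letters, TTGCACAA, starting 90 to 94 bases before the start, so these near-copies count as 1 sequence rather than 3. The GATA motif AGATAA and the PU.1 motif AGAGGAAG were in none of the 7, against 10.25% and 3.64% of all promoters. These matches describe letters in a window and say nothing of whether a factor binds.

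All 8 genes read lower in cells labelled EGR1-deficient. Rnase2a, Ear1, Ear2 and Ear10 were 2.37-fold to 3.17-fold lower and Prg3 was 2.51-fold lower in its brighter probe. Ear6, Prg2 and Epx were 1.92-fold, 1.61-fold and 1.56-fold lower. These values helped to choose the genes, so they are given as a description. Each difference is EGR1-deficient minus WT, on the log2 scale, after each array was scaled to the 75th percentile of its non-control spots. That percentile was 191.6 intensity units for the EGR1-deficient label and 183.0 for WT, so a fold is slightly larger than the plain ratio of the signals where a gene is lower.

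Rnase2a, also called Ear11, encodes a ribonuclease known in mice as a macrophage attractant. It had a signal of 289 ± 29.1 in cells labelled EGR1-deficient, against 875 ± 87.5 in cells labelled WT, a log2 difference of −1.66 with a scanner error of 0.20. This was the largest difference of the 8 genes, at rank 42 from the lowest among 13725 genes well above background on both arrays.

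Ear1 had a signal of 292 ± 29.4 in cells labelled EGR1-deficient, against 822 ± 82.3 in cells labelled WT. Its difference was −1.56, at rank 52. Ear2, whose upstream sequence is nearly that of Ear1, had 176 ± 17.9 in cells labelled EGR1-deficient, against 468 ± 46.9 in cells labelled WT. The difference of Ear2 was −1.47, at rank 57. Ear10, the next copy, had 478 ± 47.9 in cells labelled EGR1-deficient, against 1083 ± 108 in cells labelled WT, a difference of −1.25 at rank 83. Rnase2a, Ear1 and Ear2 lie within the scanner error of 0.20 of each other, so their order is not resolved.

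Ear6 was the ribonuclease whose probes did not give 1 answer. Its brighter probe read 71.9 ± 7.73 in cells labelled EGR1-deficient, against 132 ± 13.6 in cells labelled WT, a difference of −0.94. The other probe read 48.1 ± 5.85 in cells labelled EGR1-deficient, against 50.9 ± 6.44 in cells labelled WT, a difference of −0.15 with an error of 0.25. The SD of the difference between these probes was 0.56. Genes with 2 probes above background on both arrays numbered 3571, with a median SD of 0.17, and 93.9% of them had a smaller one than Ear6. Both probes are dim, and which of them reports Ear6 more faithfully was not tested.

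Prg2 encodes major basic protein, which forms the crystalline core of the eosinophil granule. It read 1542 ± 154 in cells labelled EGR1-deficient, against 2371 ± 237 in cells labelled WT, a difference of −0.69 with an error of 0.20. Prg3 encodes its homologue. The brighter Prg3 probe read 84.2 ± 8.87 in cells labelled EGR1-deficient, against 202 ± 20.4 in cells labelled WT (−1.33). The other Prg3 probe read 92.5 ± 9.67 in cells labelled EGR1-deficient, against 170.4 ± 17.4 in cells labelled WT (−0.95). Both were lower by more than their scanner error of 0.21, and the SD between them, 0.27, was above that of 69.5% of genes with 2 probes.

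Epx encodes eosinophil peroxidase. Its signal was 72.1 ± 7.83 in cells labelled EGR1-deficient, against 107 ± 11.4 in cells labelled WT, a difference of −0.64 with an error of 0.22. This was the smallest difference among the 8 genes in their brightest probes, at rank 442 from the lowest. Prg2, on chromosome 2 like Prg3, was at rank 357 and Prg3 at rank 74.

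**Figure D2:**
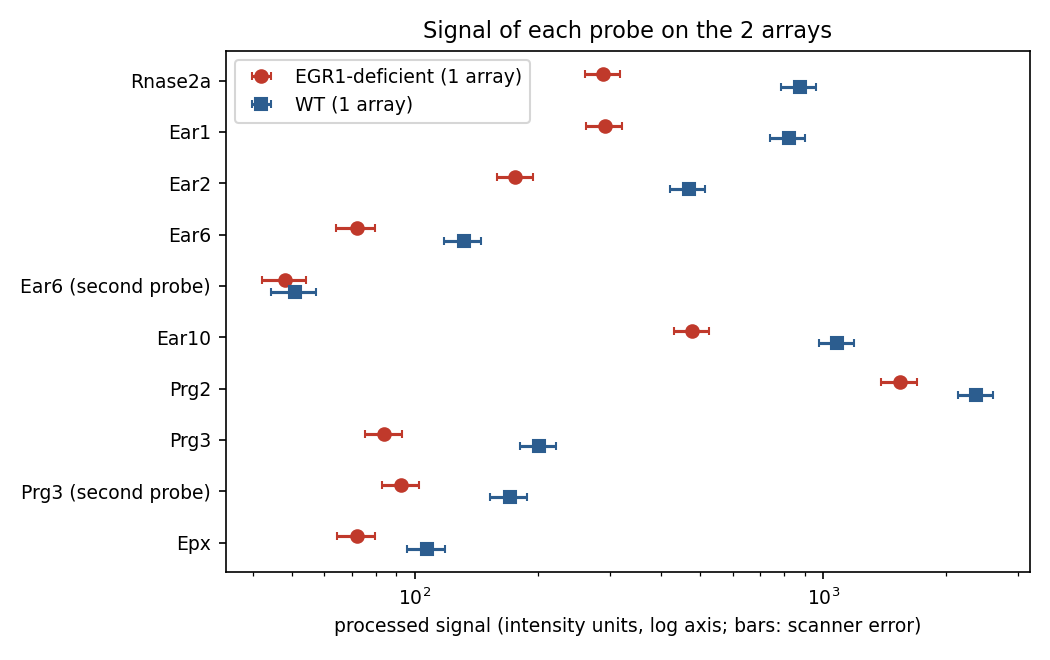
Processed signal of each of the 10 probes (horizontal log axis, intensity units) in cells labelled EGR1-deficient (circles) and WT (squares), with bars for the scanner error of the spot. In 9 probes the bars of the 2 arrays are apart, as for Rnase2a at 289 for EGR1-deficient and 875 for WT, and in the second Ear6 probe, at 48.1 for EGR1-deficient and 50.9 for WT, they overlap.

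Technical error was smaller than most of these differences. Over 281 probes printed repeatedly, the median SD between spots was 0.06 (log2) within an array and 0.07 for the difference between arrays. Probes of the same gene differed more, as given above for genes with 2 probes, and that spread of 0.17 is the scale used here for a gene. Neither includes the variation between cultures or animals, which 2 arrays cannot show.

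The median difference over the 8 genes was −1.29, against −0.05 over the 13725 genes. Over the 5 ribonucleases it was −1.47 and over the 3 granule proteins −0.69. All 8 were below 0, as were 57.4% of all genes. Of the 8 genes, 5 were 2-fold or more lower and 0 were 2-fold or more higher, whereas 1.01% of all genes were that far lower and 0.707% that far higher. Because the same contrast served to choose the genes, these counts support nothing by themselves. The split of all genes at 2-fold, 97 higher and 138 lower, was 77 and 174 after quantile normalization, 73 and 184 after loess, and 103 and 68 on the scale of the authors' deposited series table.

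**Figure D3:**
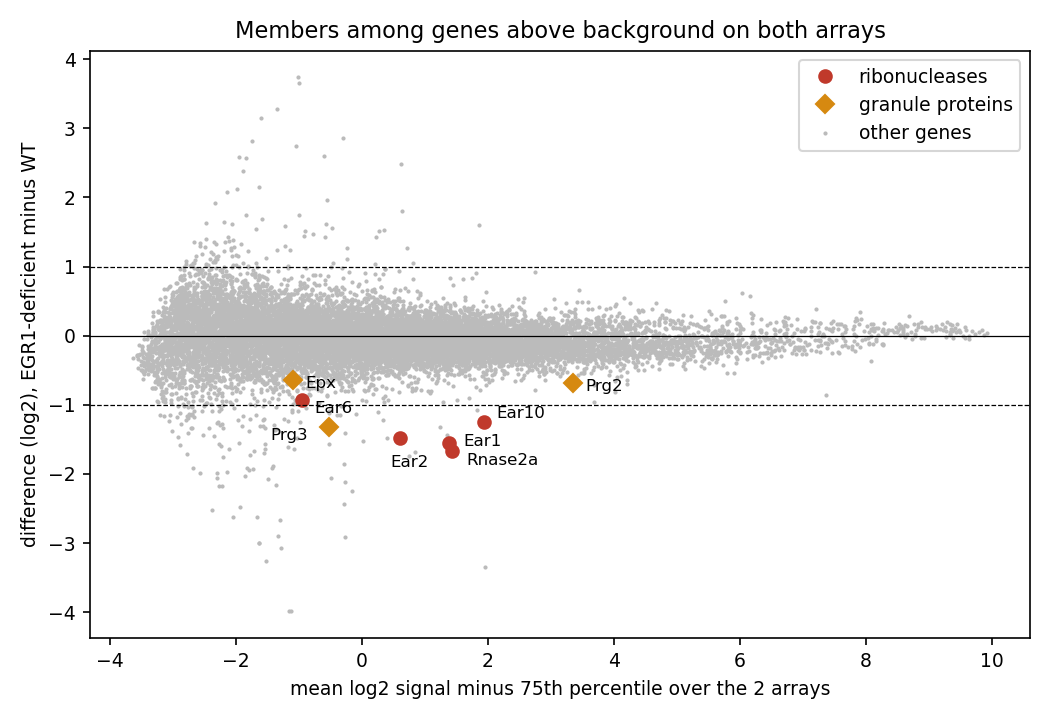
Difference (vertical axis, log2, EGR1-deficient minus WT) against mean log2 signal minus the 75th percentile (horizontal axis) for 13725 genes above background on both arrays, with dashed lines at 2-fold. The 5 ribonucleases (circles) and 3 granule proteins (diamonds) all lie below 0, from −1.66 for Rnase2a to −0.64 for Epx.

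The other RNase A family genes that could be read on both arrays stayed near 0, but none of them is an Ear gene. Of 24 further family names, counted with the ribonuclease inhibitor Rnh1, 14 had a named probe and 8 were well above background on both arrays. Their median difference was −0.02, with 4 below 0, beside 57.4% of all genes, and none 2-fold apart. Rnase6, an antimicrobial ribonuclease of phagocytes, read 1736 in cells labelled EGR1-deficient, against 1883 in cells labelled WT (−0.18). Rnase4 (−0.22) and the angiogenin gene Ang (−0.22) were likewise within about 1 scanner error of 0, and Ang4 (−0.16) changed sign between processing choices. Ang6 (0.26), Rnase10 (0.22), Rnase12 (0.12) and Rnh1 (0.16) were on the higher side. The list's median was −0.02 to 0.13 over the processing alternatives, so its sign is not fixed.

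Rnase2b, formerly Ear5, could not be told from background on either array, like Rnase1, Rnase9, Rnase13 and Ang2. Rnase11 was above background in cells labelled EGR1-deficient alone, where it read 19.8 ± 3.46, against 15.2 ± 3.68 in cells labelled WT. Its lower bound of 1.16-fold higher leaves out that scanner error, so it is not firm. For 10 family names no probe was named here: Ear3, Ear4, Ear7, Ear8, Ear9, Ear12, Ear13, Ear14, Ang3 and Ang5. Whether Ear genes other than the members differed was therefore not read.

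Chromosomal neighbours of the ribonucleases did not share their difference. In RefSeq gene order, Ear1, Ear10, Ang5, Ang6 and Ear2 follow each other among protein-coding genes of chromosome 14. Ang6, the only one of the non-Ear genes there with a named probe, differed by 0.26, between Ear10 at −1.25 and Ear2 at −1.47. Farther along, 23 genes from Rnase10 to Ear6 hold Rnase2a and Ear6. Of the other 21, 8 were above background on both arrays, with differences from −0.22 to 0.22 and a median of −0.05.

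Receptors and surface markers of eosinophils were read beside the 8 genes. Siglecf, a sialic acid-binding receptor that eosinophils share with alveolar macrophages, read 173 in cells labelled EGR1-deficient, against 228 in cells labelled WT (−0.47, other probe −0.72). Il5ra, the receptor chain for the eosinophil growth factor IL-5, read 128 in cells labelled EGR1-deficient, against 134 in cells labelled WT (−0.12), and its other probe was not above background. Ccr3, the eotaxin receptor of eosinophils, was above background in cells labelled EGR1-deficient alone. It read 24.7 ± 3.9 there, against 13.2 ± 3.9 in cells labelled WT. Its lower bound of 1.45-fold higher leaves out that scanner error, so it is not firm. Of the 5 markers that define eosinophils, 4 were below 0 and Ccr3 was not, beside 57.4% of all genes below 0. The summed signal of the 4 above background on both arrays was 1916 in cells labelled EGR1-deficient, against 2840 in cells labelled WT, most of it Prg2. Epx and Prg2 are among these 4 and were chosen by this same contrast, so the count and the sum support nothing by themselves. In bulk RNA, fewer cells of a type and less RNA per cell cannot be told apart.

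Among 26 further eosinophil receptors, factors and surface genes, 25 were above background on both arrays. Of these, 19 were below 0, beside 57.4% of all genes, and none was 2-fold apart, with a median of −0.15. The size of that shift depended on the scaling. After loess the median was −0.06, with 15 of 25 genes below 0. On the scale of the authors' series table the median was −0.02, with 12 of 22 genes below 0. Over the processing alternatives the median was −0.17 to −0.02. The eosinophil lineage factor Gata1 read 176 in cells labelled EGR1-deficient, against 173 in cells labelled WT (−0.04, a difference whose sign changed with the scaling). Cebpe, a factor needed for granule protein genes, differed by 0.25. The largest differences were those of the prostaglandin receptor gene Ptger3 (0.67, other probe 0.70), Serpinb2 (−0.58), Alox15, a lipoxygenase of eosinophils and macrophages (0.56 with a scanner error of 0.37), Adgre4 (−0.53) and Vamp7, a granule fusion protein (−0.48). Alox15 was dim, at 26.7 in cells labelled EGR1-deficient, against 17.2 in cells labelled WT, and its difference was 0.08 under normexp, a background correction whose offset pulls dim readings together. Ptger3 was at 0.38 and Adgre4 at −0.33 under normexp. Csf2ra and Csf2rb, the chains of the GM-CSF receptor, differed by −0.22 and −0.25, with 2 further Csf2rb probes at 0.04 and −0.13.

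Genes related to the granule proteins by function were read as well. Of 10 haem peroxidase and oxidase genes, Epx among them, 9 were above background on both arrays, 7 were below 0 and the median was −0.13. Mpo, the neutrophil peroxidase related to Epx, read 2380.5 in cells labelled EGR1-deficient, against 2483 in cells labelled WT (−0.13). Apart from Epx, the largest difference was that of the oxidase subunit gene Ncf4 (−0.38). Srgn, the proteoglycan that packs granule proteins in many leukocytes, differed by 0.02 in its brighter probe and −0.21 in the other.

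Of 13 listed chemokines and cytokines that draw or sustain eosinophils, 6 were above background on both arrays and 5 of these were lower. Ccl24, known as eotaxin-2, read 39.9 in cells labelled EGR1-deficient, against 94.0 in cells labelled WT (−1.30). Ccl11, eotaxin-1, read 15.8 in cells labelled EGR1-deficient, against 29.4 in cells labelled WT (−0.96, with a scanner error of 0.37). Ccl12 (−0.90) and Ccl5 (−0.40) were lower too. Ccl7 was above background in cells labelled WT alone, where it read 21.3 ± 4.32, against 11.4 ± 3.29 in cells labelled EGR1-deficient. Its bound of at least 1.68-fold lower in cells labelled EGR1-deficient leaves out that scanner error, so it is not firm. Ccl5 was bright, at 10213 in cells labelled EGR1-deficient, against 12850 in cells labelled WT. Ccl24, Ccl11, Ccl12 and Ccl7 were dim. Normexp moved Ccl24 to −0.66, Ccl11 to −0.36 and Ccl12 to −0.49, so that Ccl24 was then no longer 2-fold lower. Il13 differed by 0.25, and by 0.02 under normexp. Tslp differed by −0.02, a difference whose sign changed with the scaling. Of 13 listed genes, Il5, Il3, Csf2, Il33, Il4 and Ccl8 were not above background on either array. The list had a median of −0.65 over 6 genes, 5 of them below 0, beside 57.4% of all genes. That median was highest on the scale of the authors' series table, at −0.10 over 4 genes with 2 below 0.

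Markers of the other cells that these cultures could hold were read beside the 8 genes. Basophil and mast cell genes, with 10 of 12 above background on both arrays, had 9 below 0 and a median of −0.36. The basophil protease gene Mcpt8 differed by −0.63, the histamine-forming enzyme gene Hdc by −0.59 (other probe −0.32), Cd200r3 by −0.48 (−0.29 under normexp), the factor gene Gata2 by −0.43 and Ms4a2 by −0.41 (−0.25 under normexp). The mast cell genes Kit (0.01), Tpsb2 (−0.07) and Cma1 (−0.03) were near 0, but Cpa3 (−0.30) and Prss34 (−0.29) of the same list were lower. Fcer1a and Mcpt4 were not above background. The summed signal of the list was 5567 in cells labelled EGR1-deficient, against 6784 in cells labelled WT.

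Genes typical of alveolar macrophages, cells in which Ear transcripts are known, went both ways around a median of −0.47. Of 10 genes 8 were below 0, beside 57.4% of all genes. The chitinase-like gene Chil3 read 23407 in cells labelled EGR1-deficient, against 40560 in cells labelled WT (−0.86). Car4 (−0.66, but −0.25 under normexp), Pparg, the factor that GM-CSF induces in these cells (−0.57), Fabp4 (−0.54), Siglecf, Atp6v0d2, Spp1 and Marco were lower as well. Plet1 (0.65, other probe 0.54) and Krt79 (0.41) were higher. The summed signal was 33643 in cells labelled EGR1-deficient, against 52851 in cells labelled WT, most of it Chil3. Cidec and Fabp1 were not above background.

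The listed macrophage genes had 11 of 12 below 0 and a median of −0.39. Retnla (−3.34) and the arginase gene Arg1 (−1.36) were lowest and were the only 2 that were 2-fold lower. The complement genes C1qc (−0.64) and C1qb (−0.58) came next, and then Mertk (−0.46). The rest of the list ran from −0.40 for Fcgr1 to 0.18 for Cd14, the gene not below 0. Between them lay Csf1r (−0.39, other probe −0.05), Cd68 (−0.34, other probe −0.35), Adgre1 (−0.30), C1qa (−0.29) and Mrc1 (−0.06). Retnla, which encodes RELM-alpha, read 235 in cells labelled EGR1-deficient, against 2269 in cells labelled WT. Under normexp Arg1 was at −0.63 and Mertk at −0.21. The summed signal of the macrophage list was 32862 in cells labelled EGR1-deficient, against 41861 in cells labelled WT. Neutrophil genes, 15 of 15 above background, had 9 below 0, beside 57.4% of all genes. Their median was −0.09, which was 0.03 on the scale of the authors' series table. The antimicrobial gene Camp (0.45), Mmp9 (−0.33) and Ly6g (−0.30) differed most there, and the summed signal was 91570 in cells labelled EGR1-deficient, against 85219 in cells labelled WT. The part of any of these cell types in the readings of the 8 genes was not tested.

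Dendritic cell markers were read beside those of other cells and did not by themselves set the labelled cell type apart. Of 18 genes 16 were above background on both. Among them the MHC class II gene H2-Ab1 read 21791 in cells labelled EGR1-deficient, against 20863 in cells labelled WT. After scaling its difference was −0.004. The integrin gene Itgax read 777 in cells labelled EGR1-deficient, against 572 in cells labelled WT. The median difference was 0.05, with 7 of 16 below 0, beside 57.4% of all genes, and none 2-fold apart. Ly75 (0.53), Flt3 (0.50), Cd40 (0.43), Cd86 (−0.41) and Itgax (0.37) differed most. Under normexp Ly75 was at 0.24 and Flt3 at 0.21. Of genes more restricted to dendritic cells, Zbtb46 and Flt3 were dim, below the 75th percentile on both arrays. Zbtb46 read 122 in cells labelled EGR1-deficient, against 119 in cells labelled WT (−0.04, a difference whose sign changed with the processing). Flt3 read 135 in cells labelled EGR1-deficient, against 91.1 in cells labelled WT. Ccr7 and Batf3, of the same list, were above that percentile on both arrays. Ccr7 read 3177 in cells labelled EGR1-deficient, against 3091 in cells labelled WT (−0.03, other probe −0.24). Batf3 read 310 in cells labelled EGR1-deficient, against 263 in cells labelled WT (0.17). The cross-presenting dendritic cell genes Xcr1 and Clec9a were not above background on either array. All 12 macrophage and 15 neutrophil genes listed were above background on both.

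**Figure D4:**
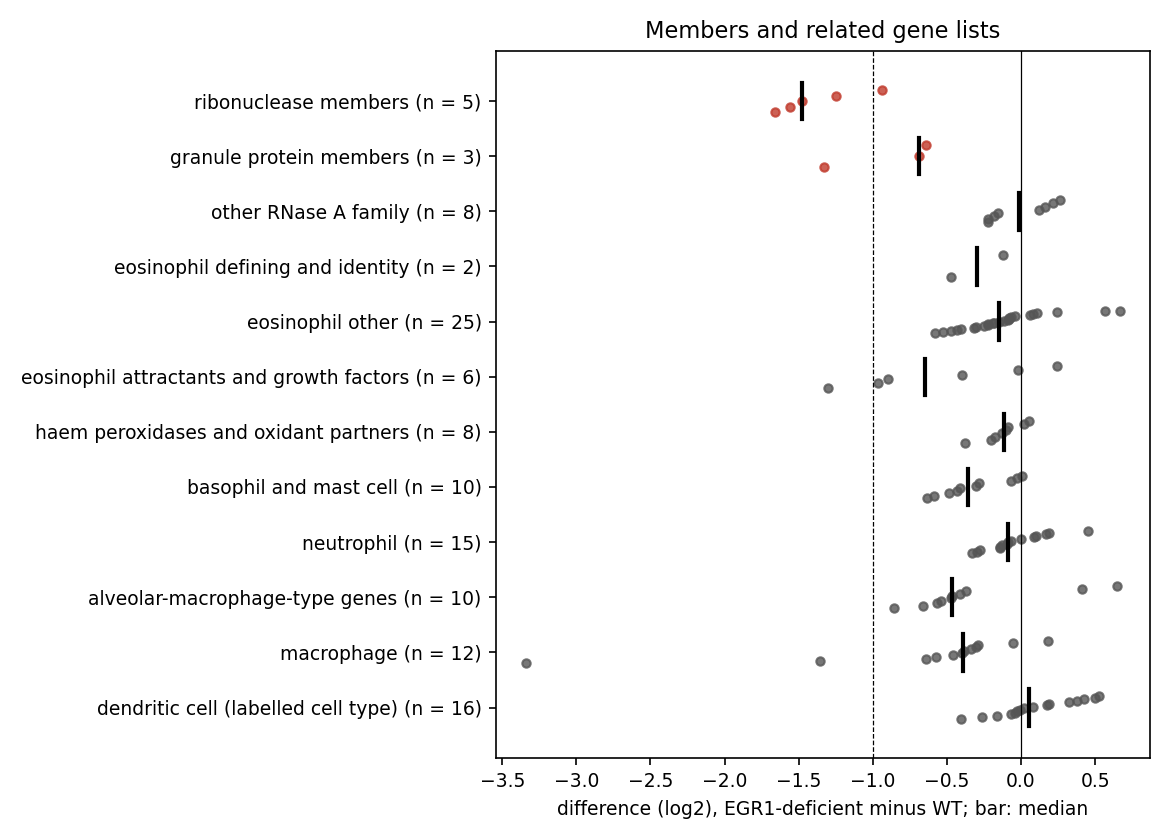
Difference (horizontal axis, log2, EGR1-deficient minus WT) of each gene above background on both arrays, by list, with a bar at the list's median, a solid line at 0 and a dashed line at 2-fold lower. The 5 ribonucleases (median −1.47) and 3 granule proteins (median −0.69) are in red, and the other lists shown, drawn without these 8 genes, have no gene below −1 other than Ccl24 among the attractants and Retnla and Arg1 among the macrophage genes.

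The differences of the 8 genes kept their sign under every alternative in the processing that was tried. Rnase2a ranged from −1.66 to −1.46, Ear1 from −1.59 to −1.44, Ear2 from −1.47 to −1.16 and Ear10 from −1.25 to −1.13. For Prg3 the range was −1.36 to −0.97, for Prg2 −0.69 to −0.57, for Epx −0.70 to −0.34 and for Ear6 −0.99 to −0.54. In the authors' deposited table, which holds all 10 probes, the median over the 8 genes was −1.17 against 0.06 over all genes.

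**Figure D5:**
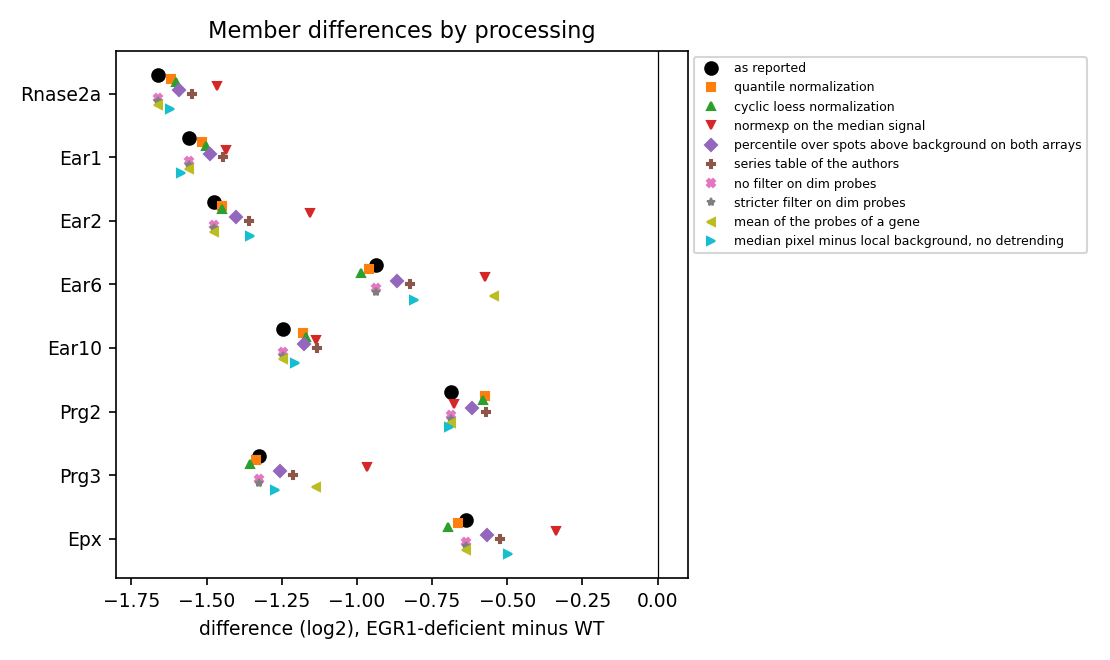
Difference (horizontal axis, log2, EGR1-deficient minus WT) of each of the 8 genes as reported (black circles) and under 9 processing alternatives (other marks). Every mark lies below 0, and the spread is widest for Ear6, from −0.99 to −0.54, and for Prg3, from −1.36 to −0.97.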

How the data were processed

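RNA of BMDC cultures was hybridised to 2 one-colour Agilent arrays on 1 slide read in 1 scan, per the file headers. Spot intensities were deposited by the authors as scanner output of Agilent Feature Extraction 12.1.0.3 (file headers), where the submitters' processing notes name 11.5.1.1. Per the file headers, the processed intensity went through background subtraction and detrending. The 0 or 1 well-above-background call and the error of each spot are the program's. The authors' series table holds 29296 spots and equals these intensities times 6.18 (EGR1-deficient) and 5.97 (WT), with column medians of 1205 (EGR1-deficient) and 1114 (WT); why is not stated.

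From these, log2 intensity minus each array's 75th percentile was computed, outlier spots (77 for EGR1-deficient, 79 for WT) were left out, and repeated spots of a probe were averaged. Probes were named by accession in RefSeq GRCm38.p6 (34565 of 56603). A gene is its probe of highest mean signal. With 1 array per group no test was run. At-least folds use 13.3 (EGR1-deficient) and 16.3 (WT), the lowest signals well above background, and leave out the scanner error of the spot. The members and lists were chosen with earlier results of these data known. Named genes are the 8 members, their family, up to 5 members with the largest difference and the defining markers of each list, and Egr1; other names were chosen after their values were seen. Python 3.11.15, R 4.3.3 and limma 3.58.1 were used, and the counting step was tested on simulated data. The file has no mean-pixel signal, so normexp (offset 50) used the median pixel signal. Array number limits the precision.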

Additional observations from a re-analysis of the deposited data

How the results depend on the processing

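The alternatives tried were quantile and cyclic loess normalization, normexp, a percentile over spots above background on both arrays, the authors' series table, no filter or a stricter filter on dim probes, and averaging a gene's probes. A median pixel signal minus local background, without detrending, was added after seeing the data. Under normexp, whose offset pulls dim readings together, the median over the 8 genes was −1.05 and 4 rather than 5 were 2-fold lower, Prg3 being at −0.97. Normexp also gave −1.46 for Rnase2a, −1.16 for Ear2, −0.58 for Ear6 and −0.34 for Epx. With the mean of both probes Ear6 was at −0.54 and Prg3 at −1.14. The other alternatives gave a median from −1.29 to −1.17 with 5 genes 2-fold lower. The count of all genes 2-fold or more apart was 235 as reported, 51 under normexp, 2251 without a filter on dim probes, 106 with the stricter filter and 112 without detrending. The other Ear6 probe ranged from −0.34 without detrending to −0.03 on the scale of the authors' series table. The other Prg3 probe ranged from −0.98 after loess to −0.59 under normexp. No paired analysis was possible because each group has 1 array. Signal over background limits the dim genes, with a scanner error of the difference of 0.25 for the other Ear6 probe and 0.37 for Ccl11.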
